A study of Homo sapiens with 16 samples.

Results

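The measurements below ask whether 2 compounds given together to HCC4006 cells change transcript levels by more or by less than their separate effects predict. HCC4006, an established line from a human lung adenocarcinoma with mutant EGFR, is the single line used. All 16 of the 16 libraries of the series enter, as a 2 by 2 design with 4 libraries in each of 4 groups: vehicle (DMSO), gefitinib at 100 nM, AZ1366 at 100 nM, and both compounds at 100 nM each, all sampled after 24 hours of treatment. PolyA RNA was sequenced and each locus has an FPKM value (fragments scaled to transcript length and to the mapped fragments of the library) in each library. Whether libraries of the same group were grown as separate cultures is not given in the labels. P-values therefore compare effects with the spread among these libraries, some or all of which may be technical.

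Gefitinib inhibits the EGFR kinase, and in lung cells driven by mutant EGFR this lowers ERK and PI3K signalling and with it cyclin D and progress through G1. AZ1366 inhibits the tankyrases TNKS and TNKS2, which attach poly-ADP-ribose to AXIN and to angiomotins and mark them for degradation; stabilised AXIN dampens Wnt and beta-catenin signalling, and stabilised angiomotins hold back the coactivator YAP. Entry into S phase depends on E2F factors, which are released when cyclin-dependent kinases phosphorylate the RB family and which activate the genes of DNA synthesis.

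The FPKM values of single libraries added up to 433357 at the lowest and 478179 at the highest; read numbers are not given, so depth is unknown. The epithelial markers EPCAM, CDH1, KRT8, KRT18, KRT19 and CLDN4 summed to 2460 to 4150 FPKM per library. The 3 lung lineage markers summed to 5.75 to 10.4 FPKM, nearly all of it NKX2-1, with NAPSA at 0.466 or less and SFTPB at 0.197 or less. Of the 4 leukocyte markers CD68, which epithelial cells also express, reached 33.5 to 63.0 FPKM and PTPRC and CD3E stayed at 0.139 or less. Endothelial, fibroblast and erythroid markers summed to at most 0.788, 2.84 and 0.116 FPKM. AZ1366 replicate 1 stood apart: on the first principal component (71.8% of the variance) it scored -19.6, against -6.50 to -3.10 for the other AZ1366 libraries and -39.3 to -34.0 for vehicle. In bulk RNA, fewer cells in a given state and less RNA per cell cannot be told apart.

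Most loci were close to additive. The interaction, (both minus AZ1366) minus (gefitinib minus vehicle), was computed for the 11647 of 24293 loci with a mean of at least 1 FPKM. On log2(FPKM + 1) an interaction of 0 means that the fold changes of FPKM + 1 multiply, and log additive has this meaning below. At loci with low FPKM in a group this is not the same as multiplying the fold changes of FPKM. On linear FPKM, as percent of the vehicle mean of each locus, an interaction of 0 means that the changes sum. A locus is called above or below additive at a Benjamini-Hochberg adjusted p under 0.05 in limma. On the log2 scale 212 loci (1.82%) were called, 38 (0.326%) above additive and 174 (1.49%) below. On the linear scale 390 (3.35%) were called, 247 (2.12%) above and 143 (1.23%) below. Both scales called 36 loci above (0.309%) and 79 below (0.678%), and 11164 loci (95.9%) were called on neither. For comparison, gefitinib alone changed 64.6% of the same loci, AZ1366 alone 58.4% and the combination 79.3%, each against vehicle, and AZ1366 added to gefitinib changed 52.5%.

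The departures that were called were small beside the main effects, running from 0.25 to 0.93 in absolute log2 units, and 8 above and 43 below reached 0.5. The median over all tested loci was -0.0011 on the log2 scale and 2.55% of vehicle on the linear scale. The median 95% interval reached 0.22 to either side of a log2 interaction, and 89.2% of loci had an interaction smaller than 0.25. The balance of calls rested in part on AZ1366 replicate 1: without it 255 loci were above and 258 below on the log2 scale, and 1106 and 292 on the linear scale, with all 38 and 174 original log2 calls kept. Leaving out any other library gave 16 to 43 above and 83 to 228 below on the log2 scale. The count above fell by over 1.5 times without vehicle replicate 1 or 4, gefitinib replicate 1 or 3, AZ1366 replicate 4 or combination replicate 1, 2 or 3, and the count below without vehicle replicate 4, gefitinib replicate 1, 2 or 3, AZ1366 replicate 4 or combination replicate 1, 3 or 4. The share of log2 calls that lay above additive was 17.9%, and 38.1% after quantile normalization, 27.9% after median-ratio scaling and 32.6% with library weights.

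**Figure D1:**
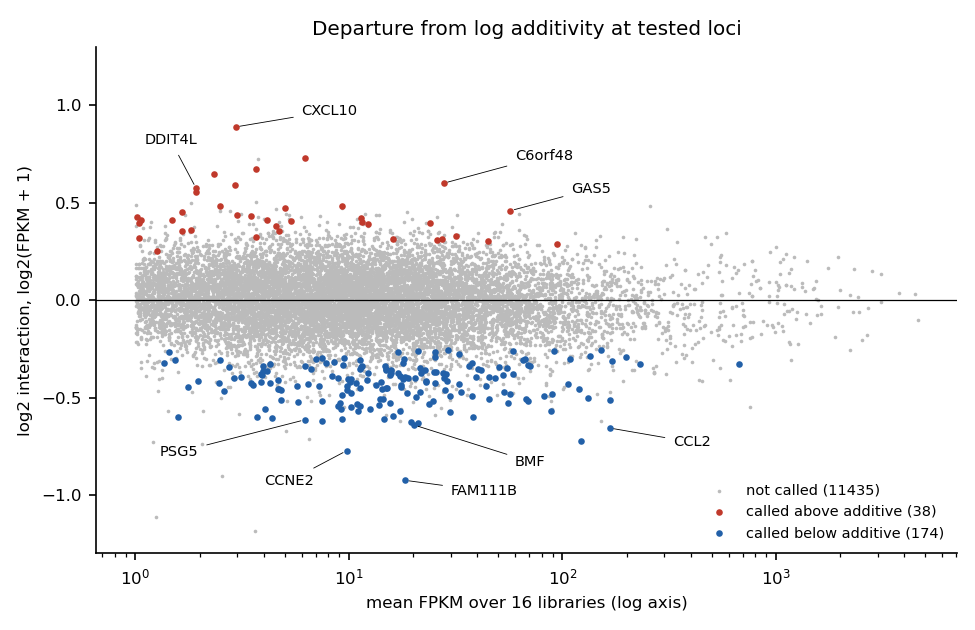
Interaction on log2(FPKM + 1) (vertical axis) against the mean FPKM over 16 libraries (horizontal log axis) for the tested loci; 2 loci outside ± 1.3, neither of them called, are not drawn. Red points are the 38 loci called above additive, blue points the 174 called below, and gray points the rest. Loci called above were of lower abundance, with a median of 3.9 FPKM, against 15.7 for loci called below and 10.1 for all tested loci.

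Loci below additive had several shapes. In 117 of the 174 loci below additive the combination had the lowest mean of the 4 groups, so the locus fell further with both compounds than the fold changes multiply to. In 24 the combination was the highest group, so the locus rose less than that product, and in 33 it lay between other groups. Of the 38 above, 23 had their highest mean and 7 their lowest with both compounds, and 8 lay between. Over all tested loci the combination was the lowest group at 47.5%, the highest at 25.9% and between others at 26.6%.

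Of the gene lists examined, DNA replication had the largest share of members below additive on the log2 scale. Of 37 tested members of a list of replication genes 18 (48.6%) were called below additive and 0 above, against 1.49% and 0.326% of all loci. This list and those below were drawn with earlier results of these data known, so the shares are set side by side and are not a test. The median interaction of the list was -0.32, with a range from -0.63 to -0.0074, and all 37 values lay below 0, as did 50.3% of all loci. Added to vehicle, AZ1366 lowered 25 of the 37 (39.8% of all loci were called lower), with a list median of -0.27. Added to gefitinib it lowered all 37 (37.2% of all loci), with a list median of -0.59. The linear scale gave another picture: 2 of the 37 were called below and 0 above (1.23% and 2.12% of all loci), with a median of -4.72% of vehicle. The median standard error of a linear interaction was 8.07% of vehicle over all tested loci. A gene without a call is therefore not shown to be linear additive.

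The mean log2(FPKM + 1) over the 37 genes was 4.86, 4.81, 4.81 and 4.78 in the vehicle libraries, 4.22, 4.26, 4.16 and 4.25 with gefitinib, 4.68, 4.44, 4.53 and 4.53 with AZ1366 and 3.62, 3.67, 3.58 and 3.60 with both, in replicate order. The groups did not overlap, and AZ1366 replicate 1 lay nearest to vehicle. The mean with both compounds was 3.62 ± 0.0372 (SD, n = 4), against 3.95 if the effects were log additive. Leaving out single libraries gave 9 to 20 members called: 9 without vehicle replicate 4 or gefitinib replicate 2, 10 without AZ1366 replicate 4 or combination replicate 3 or 4, and 11 without gefitinib replicate 3 or combination replicate 1.

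**Figure D2:**
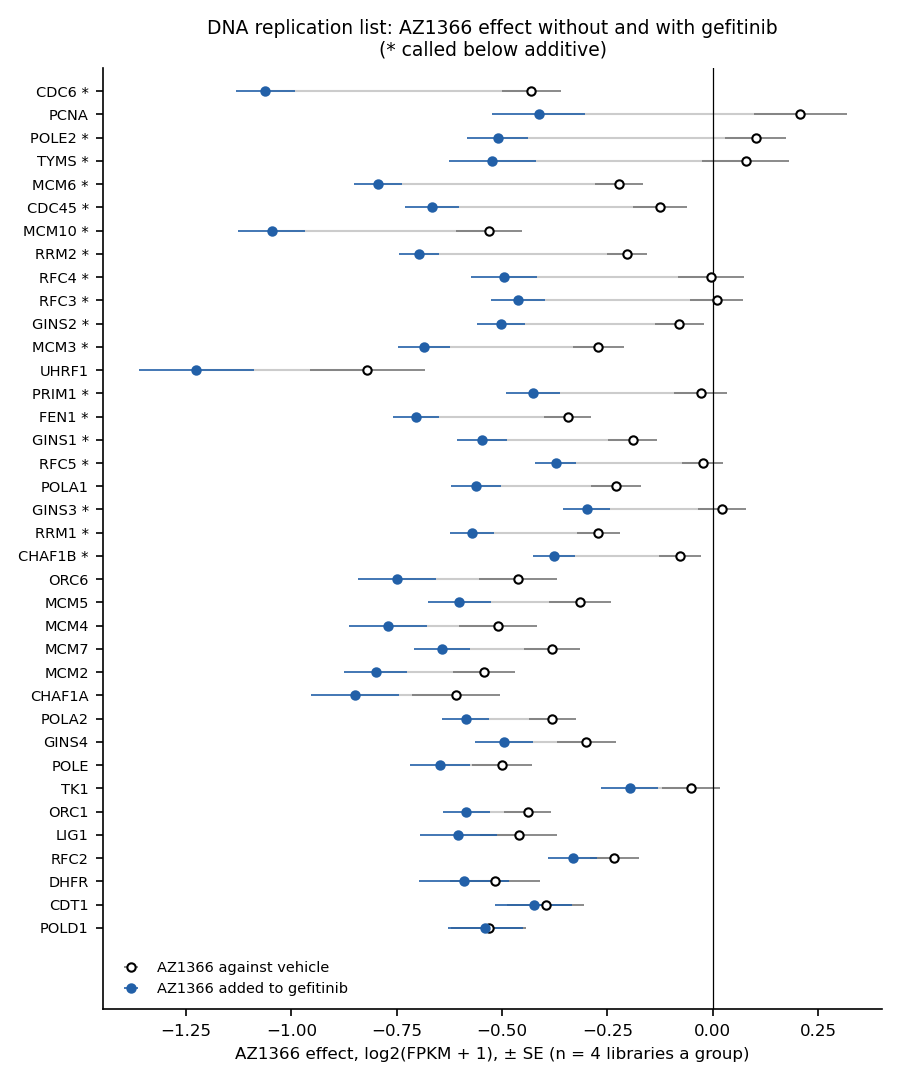
Change in log2(FPKM + 1) with AZ1366 (horizontal axis, ± SE, 4 libraries a group) for the 37 tested replication genes, ordered by their interaction; open circles are AZ1366 against vehicle and blue circles AZ1366 added to gefitinib. Every blue circle lies to the left of its open circle, and stars mark the 18 genes called below additive.

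Many replication genes carry an E2F site near their start. The 300-base promoter windows of RefSeq (GRCh38.p14, 250 bases before to 50 after the annotated start) were searched for the letters TTTGGCGC or TTTCCCGC on either strand, forms of the E2F consensus; a window can hold these and the other letters searched in overlapping places. The windows of MCM6 (2:135876394-135876693, minus strand), CDC6 (17:40287629-40287928, plus strand) and POLE2 (14:49688165-49688464, minus strand), whose values follow, each hold them. They are printed 5′ to 3′ on the gene's strand with the matched letters in capitals.
MCM6: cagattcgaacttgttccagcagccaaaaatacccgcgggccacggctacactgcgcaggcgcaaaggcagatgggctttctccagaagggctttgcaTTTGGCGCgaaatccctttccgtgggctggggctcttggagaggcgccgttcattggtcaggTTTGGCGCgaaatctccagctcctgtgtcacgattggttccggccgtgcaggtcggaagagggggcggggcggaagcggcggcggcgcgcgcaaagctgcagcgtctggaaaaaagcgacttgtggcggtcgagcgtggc
CDC6: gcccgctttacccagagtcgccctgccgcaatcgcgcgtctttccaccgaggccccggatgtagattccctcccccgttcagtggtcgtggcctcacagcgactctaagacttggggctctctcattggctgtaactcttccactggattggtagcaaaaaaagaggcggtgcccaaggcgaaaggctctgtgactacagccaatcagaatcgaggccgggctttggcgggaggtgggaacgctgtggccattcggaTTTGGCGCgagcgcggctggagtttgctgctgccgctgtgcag
POLE2: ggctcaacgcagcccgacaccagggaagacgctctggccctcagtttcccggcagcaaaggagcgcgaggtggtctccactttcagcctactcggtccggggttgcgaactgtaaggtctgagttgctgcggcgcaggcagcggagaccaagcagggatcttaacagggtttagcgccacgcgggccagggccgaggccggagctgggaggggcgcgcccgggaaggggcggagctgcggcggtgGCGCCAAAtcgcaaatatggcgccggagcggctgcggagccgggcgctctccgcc

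The matches begin at bases -152 and -90 in MCM6, at base 8 in CDC6 and at base -5 in POLE2, counted from the start site. Such letters were present in 3.9% of the windows of the 9026 tested loci that had one. They were present in 20 of 134 loci called below additive on the log2 scale (14.9%), all 20 among the 91 where the combination was the lowest group (22.0%). They were found in 0 of the 43 other loci below and 0 of the 29 above. Within the replication list the share was 9 of 18 called members and 7 of 15 that were not called, close to each other. The AP-1 letters TGANTCA were present in 7 of those 43 other loci (16.3%) and in 4.62% of all. The letters of a TEAD site (GGAATG), an E-box (CACGTG) and the interferon response element were present in 11.2%, 4.48% and 2.99% of all 134, against 10.6%, 10.4% and 2.7% of all windows. A match is a description of the letters in a window and no measurement of binding.

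CDC6 loads the MCM helicase at replication origins. CDC6 read 35.9, 33.9, 34.9 and 33.8 FPKM with vehicle, 17.2, 17.03, 16.3 and 16.4 with gefitinib, 30.4, 24.1, 23.03 and 24.7 with AZ1366 and 8.05, 7.76, 6.93 and 7.26 with both. The 4 groups did not overlap, and the combination was lowest. A log additive outcome would have been 12.1 FPKM, against an observed 7.49, and the interaction was -0.63 ± 0.099 (SE, adjusted p = 0.00445). On the linear scale the expected level was 7.66 FPKM and the interaction -0.473 ± 5.49% of vehicle (SE, adjusted p = 0.972). CDC6 thus fell by more than its fold changes multiply to. Its level lay near the sum of its separate falls, but the lack of a call does not show that it was linear additive.

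MCM6 is a subunit of that helicase. MCM6 read 40.8, 38.4, 38.99 and 39.8 FPKM with vehicle, 28.9, 29.9, 27.5 and 29.3 with gefitinib, 38.4, 31.5, 32.3 and 32.97 with AZ1366 and 16.5, 17.04, 15.7 and 15.7 with both. The combination libraries lay below all others, and AZ1366 replicate 1 reached the lowest vehicle value. The log2 interaction was -0.57 ± 0.081 (SE, adjusted p = 0.00209) and the linear one -17.6 ± 5.001% of vehicle (SE, adjusted p = 0.0672). MCM3 (-0.41 ± 0.087, adjusted p = 0.0197) was called below as well, while MCM2, MCM4, MCM5 and MCM7 had interactions of -0.26, -0.26, -0.29 and -0.26 and were not called. Among the factors that activate the loaded helicase, CDC45 (-0.54 ± 0.091, adjusted p = 0.00571), GINS1 (-0.36 ± 0.084, adjusted p = 0.035), GINS2 (-0.42 ± 0.081, adjusted p = 0.0124) and GINS3 (-0.32 ± 0.080, adjusted p = 0.0476) were called below on the log2 scale.

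POLE2 encodes an accessory subunit of DNA polymerase epsilon. POLE2 read 15.98, 18.9, 19.4 and 16.1 FPKM with vehicle, 11.9, 12.99, 13.03 and 14.2 with gefitinib, 17.2, 18.8, 19.8 and 19.8 with AZ1366 and 8.09, 9.47, 8.999 and 8.79 with both. Levels overlapped between vehicle and AZ1366, gefitinib libraries were lower, and combination libraries were lower again. POLE2 was below additive on both scales, at -0.61 ± 0.10 (SE, adjusted p = 0.00577) and -31.3 ± 6.87% of vehicle (SE, adjusted p = 0.0179). It is one of the 2 replication genes called on both, with the chromatin assembly subunit CHAF1B (-0.30 ± 0.070, adjusted p = 0.035). Of the other genes at the fork, the primase PRIM1 (-0.40 ± 0.090, adjusted p = 0.0301), the clamp loader subunits RFC3 (-0.47 ± 0.090, adjusted p = 0.0124), RFC4 (-0.49 ± 0.11, adjusted p = 0.028) and RFC5 (-0.35 ± 0.069, adjusted p = 0.0139) and the flap nuclease FEN1 (-0.36 ± 0.078, adjusted p = 0.0234) were called below on the log2 scale. The ribonucleotide reductase subunit RRM2 went from 114 ± 3.74 FPKM with vehicle to 72.5 ± 2.72 with gefitinib, 98.6 ± 4.56 with AZ1366 and 44.3 ± 1.53 with both (mean ± SD, n = 4), an interaction of -0.49 ± 0.068 (SE, adjusted p = 0.00204).

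Cyclin E2 was the gene furthest below additive among those called on both scales. CCNE2 encodes the cyclin that activates CDK2 at the start of S phase (hg19 chromosome 8, 95835534 to 95907482, an interval that also holds INTS8). CCNE2 read 10.8, 13.2, 13 and 11.1 FPKM with vehicle, 8.82, 8.92, 8.41 and 8.85 with gefitinib, 14.1, 12.3, 13.6 and 12.4 with AZ1366 and 5.12, 5.28, 4.97 and 5.37 with both. The combination libraries lay below every other library, and those of vehicle and AZ1366 overlapped. With both compounds the observed level was 5.19 FPKM, against 9.57 if log additive and 9.82 if linear additive. The interaction was -0.77 ± 0.092 (SE, adjusted p = 0.00115) on the log2 scale and -38.5 ± 6.61% of vehicle (SE, adjusted p = 0.003) on the linear scale. AZ1366 changed CCNE2 by 0.12 against vehicle (adjusted p = 0.13) and by -0.66 when added to gefitinib (adjusted p = 8.51e-07).

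A list of G1 cyclins, their kinases, MYC and E2F factors had 13 tested genes and a median of -0.22. On the log2 scale 4 of the 13 were called below and 0 above (1.49% and 0.326% of all loci). Beside CCNE2 these were its partner CDK2 (-0.39 ± 0.075, adjusted p = 0.0131), the RB-related RBL1 (-0.51 ± 0.10, adjusted p = 0.0147) and CCNE1 (-0.42 ± 0.093, adjusted p = 0.0248), the last chosen after its values were seen. Leaving out vehicle replicate 3 or 4, AZ1366 replicate 4 or combination replicate 4 ended the call of CCNE1. Cyclin D1 was not called on this scale: CCND1 had a log2 interaction of 0.033 with a 95% interval from -0.23 to 0.29, and a linear one of 26.4 ± 5.68% of vehicle (SE, adjusted p = 0.015).

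**Figure D3:**
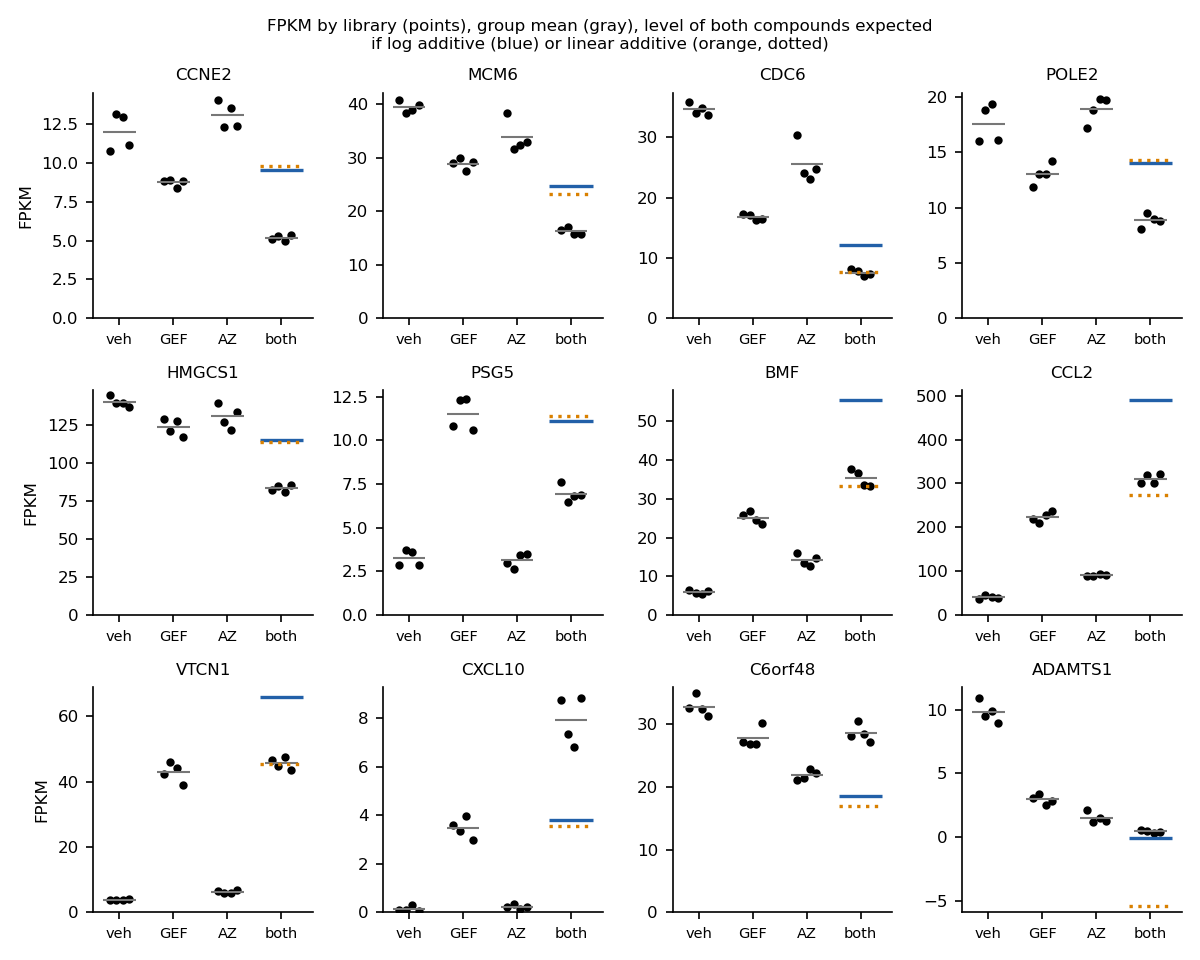
FPKM (linear axis) of 12 genes in each library, by group; points are libraries, gray lines group means, blue lines the level with both compounds expected under log additivity and dotted orange lines the level expected under linear additivity. For CCNE2, MCM6, POLE2, HMGCS1 and PSG5 the combination lies under both expectations. For CXCL10, C6orf48 and ADAMTS1 it lies over both, where both expectations of ADAMTS1 are below 0 and any level would lie over them. For CDC6 and VTCN1 it lies near the linear one.

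Homologous recombination and Fanconi genes, which repair broken and stalled forks, had the next largest share below additive. Of 19 tested, 6 (31.6%) were called below on the log2 scale and 0 above (1.49% and 0.326% of all loci). The list median was -0.31. The nuclease EXO1 (-0.46 ± 0.092, adjusted p = 0.0157) and the Fanconi gene FANCI (-0.41 ± 0.068, adjusted p = 0.00571), which shares its interval with POLG, were called below on the log2 scale only. Leaving out vehicle replicate 4, gefitinib replicate 1, 2 or 3 or combination replicate 1 left 3 of the 6.

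A smaller share of mitotic genes was called. Of 38 tested, 7 (18.4%) were called below on the log2 scale and 0 above (1.49% and 0.326% of all loci). The list median was -0.24, and 3 were called below on the linear scale (1.23% of all loci). Mean levels of CDK1 were 141 ± 15.8 FPKM with vehicle, 123 ± 5.596 FPKM with gefitinib, 161 ± 9.95 FPKM with AZ1366 and 99.4 ± 4.18 under the combination (SD, n = 4). CDK1, the kinase that drives entry into mitosis, lay -0.50 ± 0.098 from log additivity (SE, adjusted p = 0.0133). Mean levels of UBE2C were 109 ± 6.68 FPKM with vehicle, 79.8 ± 4.6 FPKM with gefitinib, 112 ± 1.98 FPKM with AZ1366 and 58.7 ± 2.78 under the combination (SD, n = 4). UBE2C, which supplies ubiquitin to the anaphase-promoting complex, had an interaction of -0.48 ± 0.077 (SE, adjusted p = 0.00451). The spindle checkpoint kinase TTK (-0.44 ± 0.097, adjusted p = 0.0239) was called as well, and 6 libraries left out singly ended that call. The proliferation marker MKI67 was not called, at -0.059 with a 95% interval from -0.57 to 0.45; its AZ1366 libraries held 21.1, 10.6, 9.57 and 13.3 FPKM, the highest being replicate 1. Leaving out any of 10 libraries brought the count of mitotic genes down to 2 or 3 of 38.

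Other cell cycle genes were among the largest departures. FBXO5 (EMI1, an inhibitor of the anaphase-promoting complex), the cohesin acetyltransferase gene ESCO2 and WDR76 were called below on both scales. Their log2 interactions were -0.57 ± 0.089, -0.57 ± 0.079 and -0.56 ± 0.076 (SE). Their linear calls were lost in 13, 15 and 4 of 27 alternative analyses. The 3 further genes that follow were chosen after their values were seen. FAM111B, whose product is a protease linked to DNA replication, had the largest log2 interaction of any called locus. FAM111B read 24.5, 24.4, 27.5 and 26.8 FPKM with vehicle, 20.6, 22.3, 16.2 and 13.8 with gefitinib, 26.5, 19.4, 19.3 and 21.9 with AZ1366 and 7.13, 8.12, 7.13 and 7.39 with both. The combination libraries lay below all others, with -0.92 ± 0.17 (SE, adjusted p = 0.00938), while the linear interaction was -26.4 ± 9.64% of vehicle (SE, adjusted p = 0.158). DTL, which targets the licensing factor CDT1 for destruction, had -0.59 ± 0.074, adjusted p = 0.00115, and the bromodomain gene ATAD2 -0.63 ± 0.13, adjusted p = 0.0206. The call of ATAD2 ended without gefitinib replicate 1 or 2 or combination replicate 4.

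Cholesterol synthesis genes departed at a few steps. Of 23 tested, 3 (13.0%) were called below on the log2 scale and 0 above (1.49% and 0.326% of all loci). The list median was -0.12. HMGCS1 encodes an enzyme of an early step of the pathway. HMGCS1 read 145, 139.6, 139 and 137 FPKM with vehicle, 129, 121, 128 and 117 with gefitinib, 139.7, 127, 122 and 134 with AZ1366 and 81.9, 85.2, 80.8 and 85.7 with both. The combination libraries lay below all others, while vehicle and AZ1366 libraries met at their edges and AZ1366 and gefitinib libraries overlapped. The interaction was -0.46 ± 0.071 (SE, adjusted p = 0.00445) on the log2 scale and -21.8 ± 4.56% of vehicle (SE, adjusted p = 0.0126) on the linear scale. AZ1366 alone changed HMGCS1 by -0.10 (adjusted p = 0.0875), and AZ1366 added to gefitinib by -0.56 (adjusted p = 3.67e-07). The sterol carrier STARD4 (-0.54 ± 0.11, adjusted p = 0.0165), whose file interval also holds NREP, was called on both scales.

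A smaller group of genes rose with each compound and rose with both by less than the product of the fold changes. BMF encodes a BH3-only protein that promotes apoptosis. BMF read 6.52, 5.83, 5.51 and 6.29 FPKM with vehicle, 25.9, 26.9, 24.6 and 23.4 with gefitinib, 16.1, 13.4, 12.7 and 14.7 with AZ1366 and 37.7, 36.6, 33.6 and 33.4 with both. The 4 groups did not overlap and the combination was highest. Log additivity would have given 55.6 FPKM, against an observed 35.3, and linear additivity 33.4; the log2 interaction was -0.64 ± 0.10 (SE, adjusted p = 0.00451) and the linear one 31.8 ± 22.2% of vehicle (SE, adjusted p = 0.46). BMF was the 1 of 12 tested pro-apoptotic BCL2 family genes called below on the log2 scale, and 0 were called above (1.49% and 0.326% of all loci). BCL2L11, which encodes BIM, was not called (0.11, 95% interval from -0.080 to 0.29).

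VTCN1 encodes the checkpoint ligand B7-H4. VTCN1 read 3.69, 3.701, 3.91 and 3.98 FPKM with vehicle, 42.3, 46.1, 44.2 and 38.9 with gefitinib, 6.53, 6.02, 5.898 and 6.95 with AZ1366 and 46.7, 44.7, 47.6 and 43.5 with both. Gefitinib and combination libraries overlapped. AZ1366 changed VTCN1 by 0.61 against vehicle (adjusted p = 9.39e-07) and by 0.090 on gefitinib (adjusted p = 0.216), and the interaction was -0.52 ± 0.085 (SE, adjusted p = 0.00553). On the linear scale it was 6.08 ± 40.99% of vehicle (SE, adjusted p = 0.955).

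Genes of the FOXO and PI3K feedback response showed the same shape at 3 of 26 members, with a list median of -0.036. On the log2 scale these 3 were called below and 0 above (1.49% and 0.326% of all loci). The linear scale went the other way, with 3 called above and 0 below (2.12% and 1.23% of all loci). FBXO32, an ubiquitin ligase gene that FOXO factors activate, went from 5.82 ± 0.177 to 20.2 ± 0.8096 FPKM with gefitinib, 9.65 ± 0.968 with AZ1366 and 22.2 ± 1.43 with both (mean ± SD, n = 4), an interaction of -0.51 ± 0.089 (SE, adjusted p = 0.00776). KLHL24 (-0.40 ± 0.088, adjusted p = 0.0248) and YPEL3 (-0.35 ± 0.079, adjusted p = 0.0263) were called as well. The log2 calls of KLHL24 and YPEL3 each ended in 7 or more of the leave-one-library-out fits. The count of 3 below on the log2 scale fell to 1 without vehicle replicate 4, gefitinib replicate 1, AZ1366 replicate 4 or combination replicate 1 or 2. The integrin genes ITGB6 (-0.52 ± 0.086, adjusted p = 0.00562) and ITGB8 (-0.52 ± 0.12, adjusted p = 0.0337) also rose with each compound. They were 2 of 15 tested integrin and laminin genes called below on the log2 scale, with 0 above (1.49% and 0.326% of all loci). The call of ITGB8 ended in 11 of 28 alternative analyses, among them leaving out vehicle replicate 3 or 4, gefitinib replicate 1, 2 or 3, AZ1366 replicate 4 or combination replicate 3 or 4.

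The cell cycle inhibitor CDKN1A (p21) rose with each compound and was below additive on both scales. CDKN1A read 29.1, 28.2, 29.1 and 29.99 FPKM with vehicle, 37.9, 37.1, 37.3 and 40.04 with gefitinib, 45.9, 46.6, 47.9 and 46.8 with AZ1366 and 47.9, 46.1, 48.2 and 48.2 with both. Combination libraries overlapped those with AZ1366 alone, and both lay above gefitinib and vehicle. The interaction was -0.35 ± 0.059 (SE, adjusted p = 0.00571) on the log2 scale and -28.1 ± 4.37% of vehicle (SE, adjusted p = 0.00132) on the linear scale, where median-ratio scaling ended the call. BIRC3, an NF-kB target that restrains caspases, lay at -0.47 ± 0.10, adjusted p = 0.0213, a call that 4 libraries ended when left out.

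At 4 loci the 2 scales were called in opposite directions, each below additive on the log2 scale and above it on the linear scale: CCL2, KLHL24, PNRC1 and NCOA7. CCL2 encodes a chemokine that draws monocytes. CCL2 read 36.9, 45.4, 41.6 and 40.3 FPKM with vehicle, 220.1, 209, 228 and 238 with gefitinib, 89.1, 89.1, 93.03 and 91.8 with AZ1366 and 301, 319, 300.1 and 322 with both. The 4 groups did not overlap. The observed 310.5 FPKM lay between the 273 of linear additivity and the 489.9 of log additivity, and the interaction was -0.66 ± 0.082 (SE, adjusted p = 0.00115) and 90.8 ± 18.3% of vehicle (SE, adjusted p = 0.00991). The linear call of CCL2 ended under quantile normalization, under both length and GC corrections and with weights by group mean. The same shape held for PNRC1, a nuclear receptor coactivator gene, at -0.40 and 72.03%, for NCOA7, at -0.38 and 197%, and for KLHL24, at -0.40 and 130.1%. The linear call of PNRC1 ended under the length and GC correction and with weights by group mean, and that of KLHL24 with weights by group mean. The log2 call of NCOA7 ended in 13 of 28 alternative analyses and that of KLHL24 in 9.

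**Figure D4:**
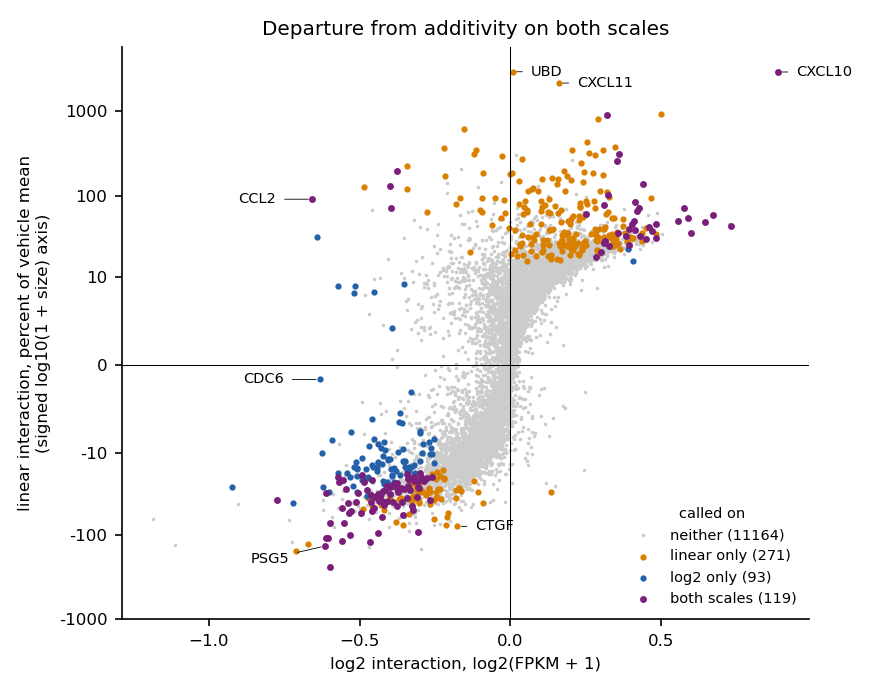
Interaction on the linear scale (vertical axis, percent of the vehicle mean on a signed logarithmic axis) against the interaction on log2(FPKM + 1) (horizontal axis) for tested loci; colors give the scale on which a locus was called. Loci in the upper left, such as CCL2, lie below additive on the log2 scale and above it on the linear scale; no called locus lies in the opposite corner on both scales.

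At other genes AZ1366 lowered what gefitinib had raised. PSG5 encodes a pregnancy-specific glycoprotein, one of a family of near-identical genes among which reads may be split. PSG5 read 2.88, 3.73, 3.64 and 2.87 FPKM with vehicle, 10.8, 12.3, 12.4 and 10.6 with gefitinib, 2.99, 2.63, 3.47 and 3.51 with AZ1366 and 7.59, 6.48, 6.81 and 6.85 with both. Vehicle and AZ1366 libraries overlapped, gefitinib libraries were highest, and combination libraries lay between. AZ1366 changed PSG5 by -0.043 against vehicle (adjusted p = 0.677) and by -0.66 on gefitinib (adjusted p = 1.52e-05). The interaction was -0.61 ± 0.12 (SE, adjusted p = 0.0142) on the log2 scale and -136 ± 16.7% of vehicle (SE, adjusted p = 0.000145) on the linear scale. ALPP, the placental alkaline phosphatase gene, which also has near-identical relatives, rose from 0.747 ± 0.121 to 3.598 ± 0.456 FPKM with gefitinib and stood at 0.443 ± 0.0548 with AZ1366 and 1.51 ± 0.196 with both, -0.60 ± 0.10, adjusted p = 0.00749. With a pseudocount of 0.1 the ALPP interaction was -0.56 (adjusted p = 0.115).

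LGR5 is a stem cell marker and Wnt target that encodes an R-spondin receptor. It was the 1 of 10 tested Wnt feedback genes called below on the log2 scale, with 0 above (1.49% and 0.326% of all loci). On the linear scale 2 of the 10 were called below and 1 above (1.23% and 2.12% of all loci). LGR5 read 2.15, 1.81, 2.02 and 1.77 FPKM with vehicle, 3.698, 3.66, 3.67 and 3.49 with gefitinib, 2.09, 1.92, 1.82 and 1.797 with AZ1366 and 2.63, 2.58, 2.19 and 2.26 with both. The combination lay between gefitinib and the overlapping vehicle and AZ1366 libraries. LGR5 was below additive on both scales, at -0.43 ± 0.084 (SE, adjusted p = 0.0139) and -60.96 ± 8.91% of vehicle (SE, adjusted p = 0.000782). ERP27, an endoplasmic reticulum protein gene, went from 3.46 ± 0.157 to 15.7 ± 1.23 FPKM with gefitinib, 4.84 ± 0.671 with AZ1366 and 13.2 ± 0.939 with both, -0.61 ± 0.11, adjusted p = 0.00829. SPTSSB, a subunit of the first enzyme of sphingolipid synthesis, had another shape: each compound alone raised it and AZ1366 added to gefitinib gave a change of -0.0045 (adjusted p = 0.958). SPTSSB reached 4.01 ± 0.175 FPKM with gefitinib, 4.31 ± 0.238 with AZ1366 and 4.001 ± 0.282 with both, from 2.52 ± 0.285 with vehicle, -0.60 ± 0.090, adjusted p = 0.00339.

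Interleukin 8 showed the reverse order of compounds, since AZ1366 raised it and gefitinib lowered it. IL8 read 2.81, 5.66, 4.81 and 3.73 FPKM with vehicle, 2.79, 2.49, 3.38 and 2.64 with gefitinib, 12.2, 10.6, 16.4 and 14.7 with AZ1366 and 5.24, 6.004, 5.61 and 5.08 with both. AZ1366 libraries lay above all others, and combination libraries overlapped the vehicle range; gefitinib and vehicle libraries overlapped too. IL8 was called below additive on the linear scale, -154 ± 29.7% of vehicle (SE, adjusted p = 0.00731), and not on the log2 scale, -0.71 ± 0.20 (SE, adjusted p = 0.0926).

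CXCL10 had the largest log2 interaction above additive among called loci. CXCL10 encodes an interferon-induced chemokine that draws T cells, and the interval given for it (hg19 chromosome 4, 76932333 to 77033955) also holds CXCL11. CXCL10 read 0.119, 0.113, 0.326 and 0.0396 FPKM with vehicle, 3.59, 3.34, 3.98 and 2.99 with gefitinib, 0.214, 0.344, 0.139 and 0.237 with AZ1366 and 8.77, 7.33, 6.796 and 8.83 with both. Near 0 the vehicle and AZ1366 libraries overlapped, and the combination libraries lay above all gefitinib libraries. The observed level with both was 7.89 FPKM, against 3.797 if log additive and 3.56 if linear additive, and the interaction was 0.89 ± 0.13 (SE, adjusted p = 0.00231). With a pseudocount of 0.1 in place of 1 the interaction was 0.66 (adjusted p = 0.397). CXCL11 reached 11.1 ± 1.28 FPKM with gefitinib, 2.18 ± 0.324 with AZ1366 and 25.8 ± 1.05 with both, from 0.605 ± 0.189 with vehicle. Linear additivity would have given 12.7 and log additivity 22.9 FPKM, and the log2 interaction was 0.16 ± 0.13 (SE, adjusted p = 0.578), or -0.51 with a pseudocount of 0.1 (adjusted p = 0.246).

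Other genes that interferon gamma is known to induce were looked at after their values were seen. The tryptophan-degrading enzyme IDO1 was above additive on both scales. IDO1 read 1.39, 1.16, 1.33 and 1.18 FPKM with vehicle, 4.02, 4.07, 3.82 and 3.51 with gefitinib, 1.26, 1.46, 1.04 and 1.34 with AZ1366 and 5.52, 5.704, 5.51 and 5.61 with both. Vehicle and AZ1366 libraries overlapped, and combination libraries lay above gefitinib libraries. The interaction of IDO1 was 0.44 ± 0.087 (SE, adjusted p = 0.0141). KMO, a later enzyme of that pathway whose interval also holds OPN3 and CHML, had 0.36 ± 0.075, adjusted p = 0.0197, and 0.24 with a pseudocount of 0.1 (adjusted p = 0.415); leaving out vehicle replicate 4 or AZ1366 replicate 4 also ended its call. UBD, a ubiquitin-like gene, went from 0.449 ± 0.0531 FPKM with vehicle to 13.4 ± 1.304 with gefitinib, 1.92 ± 0.0687 with AZ1366 and 28.04 ± 2.24 with both (mean ± SD, n = 4). UBD was called above additive on the linear scale and not on the log2 scale, at 0.0081 ± 0.095 (SE, adjusted p = 0.974), and was below it with a pseudocount of 0.1, at -0.82 (adjusted p = 0.00223). The list of 42 tested interferon-stimulated genes as a whole had 0 calls on the log2 scale in limma, with a median of -0.095, and 2 above on the linear scale (2.12% of all loci). At an unadjusted p under 0.05 on the log2 scale 2 were above and 5 below (5.64% and 8.71% of all loci). Gefitinib raised 41 of the 42 (27.7% of all loci were called higher), and AZ1366 raised 21 against vehicle (18.6%) and 16 on gefitinib (15.3%).

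A pair of RNAs that carry small nucleolar RNAs in their introns were above additive on both scales. C6orf48 is such a host gene on chromosome 6. C6orf48 read 32.6, 35, 32.4 and 31.3 FPKM with vehicle, 27.2, 26.9, 26.8 and 30.3 with gefitinib, 21.1, 21.5, 22.9 and 22.3 with AZ1366 and 28.2, 30.6, 28.5 and 27.2 with both. Combination libraries overlapped gefitinib libraries and lay above AZ1366 libraries, the lowest group. AZ1366 changed C6orf48 by -0.56 against vehicle (adjusted p = 7.42e-07) and by 0.041 on gefitinib (adjusted p = 0.544), and the interaction was 0.60 ± 0.077 (SE, adjusted p = 0.00115) and 35.6 ± 4.91% of vehicle (SE, adjusted p = 0.000451). GAS5, a growth arrest RNA with the same kind of gene, was highest with both compounds. GAS5 read 44.6, 49.2, 48.7 and 45.2 FPKM with vehicle, 58.96, 55.6, 65.9 and 63.3 with gefitinib, 38.9, 47.8, 43.7 and 41.8 with AZ1366 and 73.8, 73.1, 83.9 and 77.3 with both. The interaction of GAS5 was 0.46 ± 0.097 (SE, adjusted p = 0.0199), in an interval that also holds its small nucleolar RNAs, and the call ended under quantile normalization, median-ratio scaling and without AZ1366 replicate 4.

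Further genes lay above additive on both scales. DDIT4L, an inhibitor of mTOR signalling, went from 1.66 ± 0.23 to 2.03 ± 0.0702 FPKM with gefitinib, 1.23 ± 0.195 with AZ1366 and 2.78 ± 0.0571 with both, 0.58 ± 0.094, adjusted p = 0.00546. GLI4, a zinc finger gene, had 0.59 ± 0.12, adjusted p = 0.0194, a call that ended without vehicle replicate 4 or AZ1366 replicate 4. The nitric oxide synthase gene NOS3 had 0.49 ± 0.093, adjusted p = 0.0124, and CD320, the receptor for transcobalamin, 0.48 ± 0.097, adjusted p = 0.0147.

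Some calls above additive lay at genes that both compounds lowered toward 0. ADAMTS1 encodes a secreted metalloproteinase. ADAMTS1 read 10.96, 9.502, 9.94 and 8.98 FPKM with vehicle, 3.103, 3.41, 2.52 and 2.81 with gefitinib, 2.09, 1.15, 1.48 and 1.24 with AZ1366 and 0.533, 0.481, 0.319 and 0.414 with both. The 4 groups did not overlap, and the combination was lowest. The sum of the separate falls would have taken ADAMTS1 below 0, to -5.395 FPKM. Log additivity with a pseudocount of 1 would also have taken it below 0, to -0.101 FPKM, so any level would lie above both expectations. The interaction was 0.67 ± 0.14 (SE, adjusted p = 0.0195) with a pseudocount of 1 and 0.16 with 0.1 (adjusted p = 0.774). MARCHF4 (0.56 ± 0.12, adjusted p = 0.0224) and the collagen gene COL8A1 (0.65 ± 0.13, adjusted p = 0.0193), whose interval also holds FILIP1L and C3orf26, had the same shape, and a pseudocount of 0.1 gave 0.38 (adjusted p = 0.365) and 0.70 (adjusted p = 0.0834). Leaving out AZ1366 replicate 4 ended the log2 calls of all 3, and that of MARCHF4 ended without vehicle replicate 1 or 4, gefitinib replicate 2 or combination replicate 1 as well. In all, 63 tested loci had a linear expectation below 0; 33 of them were called above on the linear scale and 7 on the log2 scale. Of the 38 loci above on the log2 scale 13 had a group mean under 1 FPKM, as had 3 of the 174 below.

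No tested gene on the lists of ERK output and of YAP and TEAD targets was called on the log2 scale. DUSP6, an ERK phosphatase transcribed in response to ERK, is a usual readout of EGFR inhibition. DUSP6 read 23.5, 23.6, 23.02 and 23.8 FPKM with vehicle, 2.78, 2.95, 2.39 and 2.71 with gefitinib, 26.2, 19.98, 21.7 and 23.5 with AZ1366 and 3.39, 3.28, 2.61 and 2.67 with both. Vehicle and AZ1366 libraries overlapped, as did gefitinib and combination libraries. The log2 interaction of DUSP6 was 0.15 with a 95% interval from -0.091 to 0.39. Of 27 tested genes of ERK output 0 were called on the log2 scale in limma, with a median of 0.033, and 5 above and 1 below on the linear scale (2.12% and 1.23% of all loci). At an unadjusted p under 0.05 on the log2 scale 2 above and 1 below were found (5.64% and 8.71% of all loci). EGFR itself fell with each compound, from 77.7 ± 4.39 to 38.1 ± 4.06 and 41.3 ± 8.92, and stood at 20.8 ± 2.45 FPKM with both, close to the 19.7 of log additivity (interaction 0.071, 95% interval from -0.27 to 0.41).

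CTGF, which YAP and TEAD factors induce, is a usual readout of YAP. CTGF read 19.5, 19.6, 19.7 and 19.7 FPKM with vehicle, 42.97, 45.1, 47.6 and 44.9 with gefitinib, 9.14, 9.07, 9.31 and 9.16 with AZ1366 and 18.9, 20.2, 18.4 and 19.1 with both. Gefitinib raised it and AZ1366 lowered it, and combination libraries reached the range of vehicle. The log2 interaction of CTGF was -0.18 with a 95% interval from -0.31 to -0.043, and the linear one -79.2 ± 5.55% of vehicle (SE, adjusted p = 7.05e-07). Of 26 tested YAP and TEAD targets 0 were called on the log2 scale in limma, with a median of -0.066, and 4 above and 4 below on the linear scale (2.12% and 1.23% of all loci). At an unadjusted p under 0.05 on the log2 scale 1 above and 2 below were found (5.64% and 8.71% of all loci). ANKRD1, another such target, had a log2 interaction of 0.13 with a 95% interval from -0.090 to 0.36 and a linear one of -30.1 ± 6.89% of vehicle (SE, adjusted p = 0.0239), a linear call that ended in 8 of 27 alternative analyses. The Wnt feedback genes AXIN2 and NKD1 did not reach the filter. AXIN2 held 0.1, 0.0353, 0.073 and 0.0897 FPKM with vehicle, 0.0524, 0.0559, 0.0525 and 0.0474 with gefitinib, 0.0307, 0.0144, 0.0141 and 0.0215 with AZ1366 and 0.0209, 0.039, 0.00833 and 0.034 with both, and NKD1 at most 0.0244 in any library. The tankyrase genes were not called, with -0.14 (95% interval from -0.30 to 0.028) for TNKS and -0.032 (from -0.25 to 0.19) for TNKS2.

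MYC, AXL and ribosome biogenesis genes, most of which both compounds lowered, had no call on the log2 scale. MYC went from 5.73 ± 0.762 FPKM with vehicle to 2.79 ± 0.0824 with gefitinib, 3.02 ± 0.343 with AZ1366 and 1.402 ± 0.192 with both, an interaction of 0.078 with a 95% interval from -0.16 to 0.32. The receptor kinase AXL went from 148 ± 8.65 to 92.4 ± 3.48, 59.04 ± 7.07 and 42.6 ± 1.96 FPKM, an interaction of 0.22 ± 0.098 (SE, adjusted p = 0.326) on the log2 scale and 26.4 ± 4.71% of vehicle (SE, adjusted p = 0.00384) on the linear scale. Ribosome biogenesis genes fell under each compound, 27 of 28 with gefitinib (36.9% of all loci) and 25 with AZ1366 (39.8%). Of these 28, 0 were called on the log2 scale in limma, with 2 above and 0 below at an unadjusted p under 0.05 (5.64% and 8.71% of all loci) and a median of 0.063, and 8 were called above on the linear scale (2.12%). The 43 cytosolic ribosomal protein genes, 40 oxidative phosphorylation genes and 30 proteasome genes had 0 calls on either scale in limma, with medians of 0.072, -0.011 and -0.018. In that order, gefitinib raised 18, 23 and 5 of them and lowered 1, 4 and 15 (27.7% and 36.9% of all loci). AZ1366 raised 22, 24 and 12 and lowered 0, 3 and 5 (18.6% and 39.8% of all loci). At an unadjusted p under 0.05 on the log2 scale these lists had 10 above and 0 below, 3 above and 0 below and 3 above and 1 below, against 5.64% above and 8.71% below of all loci.

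**Figure D5:**
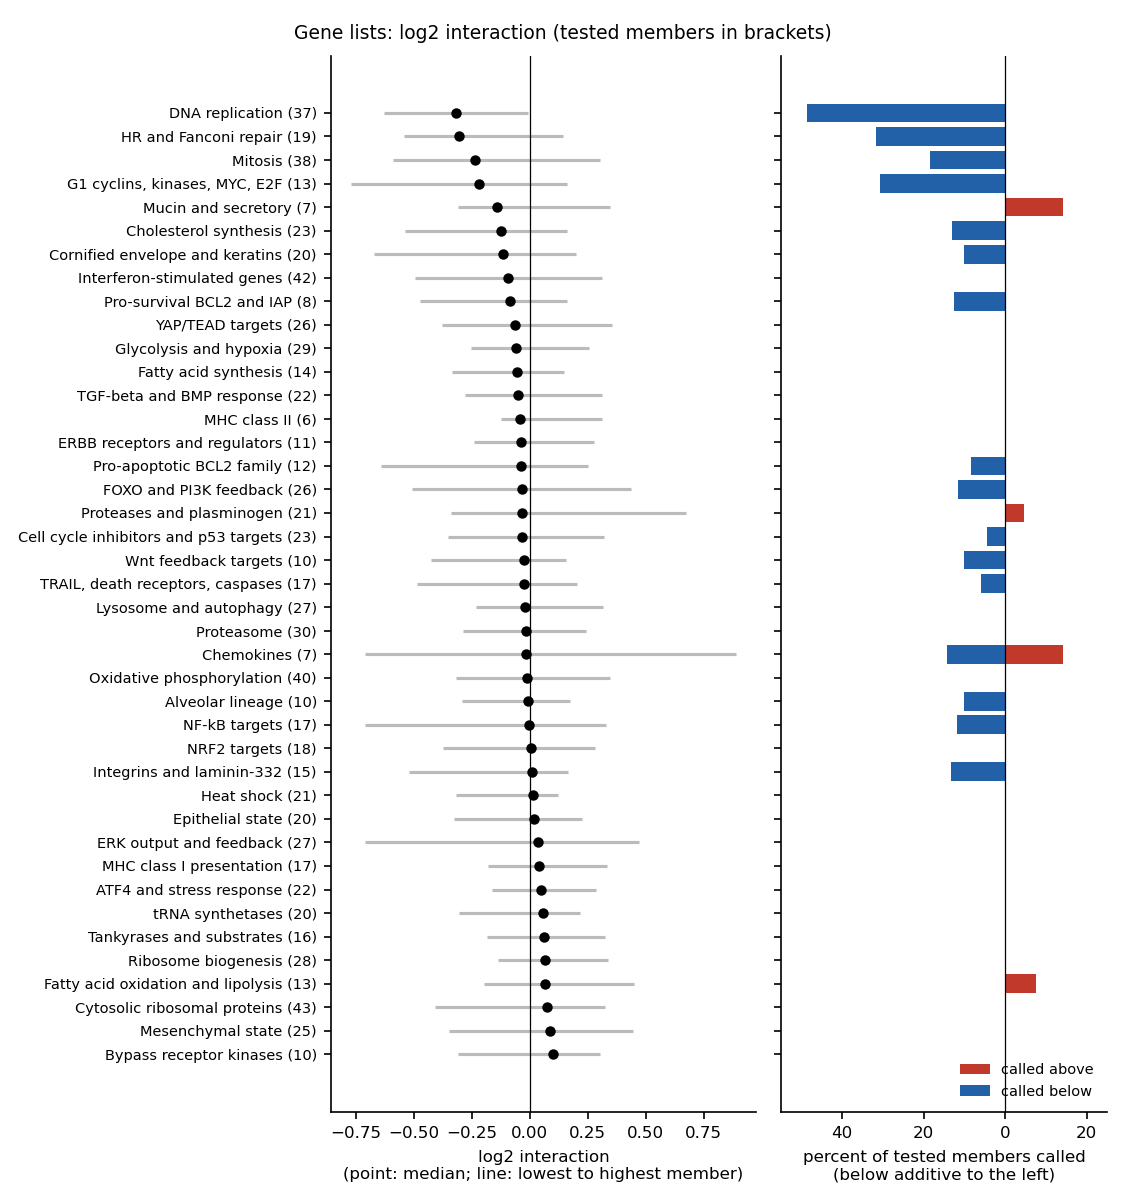
Left: median log2 interaction (point) and range from the lowest to the highest member (line) of each gene list with 5 or more tested members, the number in brackets. Right: percent of tested members called below (blue, to the left) and above (red, to the right) additive on the log2 scale; DNA replication has the lowest median (-0.32) and the largest share below (48.6%).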

How the data were processed

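HCC4006 cells had been treated for 24 hours and polyA RNA of 16 libraries sequenced. The authors deposited FPKM for each of 24293 loci in each library; the tools named, per the submitters' processing notes, are Cufflinks 1.3.0, Cuffdiff and TopHat 1.4.1, and the build is hg19, with no roles stated. The annotation, any scaling between libraries and the keeping of strand are not given in the sources used here. Read counts were not analysed here, so depth is unknown. All 16 columns were used. Coordinates are the file's locus intervals on hg19, counted from 1; several genes can share one, and without strand their overlapping reads cannot be told apart.

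Loci with a mean of at least 1 FPKM were fitted with limma 3.58.1 in R 4.3.3, with 4 group terms and moderated variances with a mean-variance trend (12 residual degrees of freedom). A fit used log2(FPKM + 1) and another FPKM as percent of the locus's vehicle mean. Two-sided p-values were adjusted across all 11647 tested loci (Benjamini-Hochberg), and calls are at an adjusted p under 0.05. Fold changes are on the log2(FPKM + 1) scale, which understates changes of low genes. The fit was also run on simulated data with known departures and independent noise of equal spread in the 4 groups. That setting holds no outlying library and no change of pseudocount. It therefore does not bear on how the calls depend on AZ1366 replicate 1 or on low values. Gene lists are described by counts and medians, with no test. Members, lists and alternatives were chosen with earlier results of these data known.

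Genes were named by rule: the 12 largest positive and negative log2 interactions among loci called in the same direction on both scales, the 6 largest each way among those called in opposite directions, the 3 called members with the smallest p in each list with 5 or more tested members, and 18 fixed genes. The text prints part of these, and some genes are not reported here. CCNE1, IDO1, KMO, UBD, FAM111B, DTL, ATAD2, the further replication genes and the promoters shown were picked once their values were known. The alternatives tried were a pseudocount of 0.1, no filter or a mean of at least 5 FPKM, quantile and median-ratio scaling, no trend, the replicate number as a block, library weights, weights by group mean on the linear scale, a length and GC correction with and without the block, a minimum size, and leaving out each library. Leaving out vehicle 1 with AZ1366 1, and a pseudocount of 0.1 with every group mean at least 1 FPKM, were added after seeing the data.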

Additional observations from a re-analysis of the deposited data

Results flagged for a closer look

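The effect of AZ1366 differed between cells with and without gefitinib at 212 loci on the log2 scale and at 390 on the linear scale, by the test of the interaction itself in limma; these are the loci described above.

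In 19 of 256 combinations of a printed gene and a group, 1 library lay far from the other 3 (FPKM in brackets), where chance flags about 1 in 20: in AZ1366 replicate 1 ALPP (0.525), ATAD2 (26.8), CDK1 (147), ESCO2 (13.9) and ITGB8 (7.01); in AZ1366 replicate 3 KLHL24 (4.55); in vehicle replicate 1 ALPP (0.928), CCND1 (210) and COL8A1 (5.99); in vehicle replicate 4 CXCL11 (0.884); in gefitinib replicate 1 MYC (2.91); in gefitinib replicate 3 STARD4 (16); in gefitinib replicate 4 ANKRD1 (19.4), C6orf48 (30.3), LGR5 (3.49), TNKS2 (15.5) and UBE2C (86.7); in combination replicate 2 CDKN1A (46.1); in combination replicate 4 UBD (31.4).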

How the results depend on the processing

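All 212 log2 calls kept their sign in every alternative that gave them a value, while the counts moved. On the log2 scale there were 38 loci above and 174 below additive, on the linear scale 247 and 143, and on both scales 36 and 79. Leaving out each library in turn gave, in that order, 16 to 255, 83 to 258, 151 to 1106, 77 to 292, 15 to 244 and 35 to 157, and the highest of each came without AZ1366 replicate 1. Quantile normalization gave 200, 325, 707, 303, 194 and 197. Median-ratio scaling gave 119, 307, 520, 276, 114 and 177. Library weights gave 344, 712, 1060, 652, 333 and 463. A pseudocount of 0.1 left 25 above on the log2 scale and 23 on both, and with every group mean at least 1 FPKM 22 and 20. No filter gave 64 above on the log2 scale; a mean of at least 5 FPKM gave 15, with 144 above and 93 below on the linear scale and 13 above on both. Weights by group mean gave 159 above and 86 below on the linear scale. Without vehicle 1 and AZ1366 1 together, 115 lay above on the log2 scale, 879 above and 220 below on the linear scale and 113 above on both. A minimum size of 0.5, fewer by construction, left 8 above and 43 below on the log2 scale and 8 and 17 on both. The causes of the other moves were not tested. A named gene turned: the log2 interaction of UBD, 0.0081 with a pseudocount of 1, was -0.82 with 0.1 (adjusted p = 0.00223 in limma), and the cause was not tested. The replicate number as a block gave 41 and 186 log2 calls, 298 and 163 linear calls and 39 and 84 on both. Deviations of same-numbered libraries correlated at -0.447 to 0.539, with a median of 0.215 and 16 of 24 pairs over 0.1. Between libraries of other numbers the median was -0.0914, and 4 of 16 libraries correlated best with their own number. Whether same-numbered libraries were paired cannot be told from these values. With depth unknown, no counting error could be given.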

Other observations

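Host genes of small nucleolar RNAs were gathered by symbol (GAS5, C6orf48 and the SNHG series) after the values of C6orf48 and GAS5 were seen. Of 15 such loci tested, 3 were called above additive on the log2 scale and 0 below (0.326% and 1.49% of all loci). C6orf48 and GAS5, which prompted the list, are among the 3, so this count cannot be judged against those shares. The median interaction was 0.090, and 11 of the 15 lay above 0, while 50.3% of all loci lay below 0. The locus called beside C6orf48 and GAS5 carries the joined symbols of SNHG7 and 2 small nucleolar RNAs. Its mean was 8.69 FPKM in the vehicle group, 6.03 under gefitinib, 4.51 under AZ1366 and 5.62 under the combination, and its interaction was 0.73 ± 0.12 (SE, adjusted p = 0.00553 in limma). The other 12 loci were not called; SNHG11, at 0.38 ± 0.10 (SE, adjusted p = 0.0744 in limma), came nearest.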
